A study of Homo sapiens with 6 samples.

Results

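The genes described here are those of the respiratory chain: protein-coding genes whose symbol starts with NDUFA, NDUFB, NDUFC, NDUFS, NDUFV, UQCR or ATP5 or with COX and a digit, together with *SDHA*, *SDHB*, *SDHC*, *SDHD* and *CYC1*. Of the 46427 genes in the table, 111 matched this rule, which used names only and no measured value. Nuclear DNA encodes 108 of them, and the other 3, *COX1*, *COX2* and *COX3*, are genes of mitochondrial DNA that share the name stem. By complex, the 108 nuclear genes are 37 subunits of complex I, 4 of complex II, 10 of complex III, 19 of complex IV, 19 genes of complex V, 17 assembly factors and 2 readthrough genes that join a subunit gene to its neighbour. *NDUFA4* and *NDUFA4L2* were placed in complex IV, where the NDUFA4 protein is now counted as a subunit.

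The libraries came from HCT116, a line derived from a human colon carcinoma, as 3 biological replicates of stranded mRNA for each genotype. The *ZK3*-WT group is the unedited parent line, and in the *ZK3*-KO group CRISPR/Cas9 was aimed at the start codon in the first exon of *ZKSCAN3*. The paper describes *ZK3*-KO as mutated in both alleles, from sequencing of genomic DNA. *ZKSCAN3* encodes a zinc finger transcription factor with KRAB and SCAN domains, and the comparison asks which transcripts differ when it is disrupted. Both genotypes grew in DMEM with 10% FBS. The *ZK3*-KO cells passed through puromycin and single-cell selection and the parental cells are not described as a clone, so that differences of a clone and of *ZKSCAN3* loss cannot be told apart here.

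The respiratory chain sits in the inner mitochondrial membrane. Complexes I and II pass electrons from NADH and succinate to ubiquinone, complex III passes them on to cytochrome c and complex IV to oxygen, while complexes I, III and IV pump protons whose return through complex V drives ATP synthesis. Apart from complex II, each complex joins subunits from both genomes, so that nuclear and mitochondrial transcripts supply parts of one machine, and assembly factors help to build it without staying in it.

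Between 60827060 and 69739215 reads were counted per library. *ZK3*-KO replicate 3 stood apart: its log2 CPM correlated across genes at 0.963 and 0.95 with the other *ZK3*-KO libraries, which correlated with each other at 0.985. The count of *ZKSCAN3* reads did not separate the genotypes (28.1, 23.4 and 19.8 CPM in *ZK3*-WT and 25.4, 24.9 and 13.6 CPM in *ZK3*-KO replicates 1, 2 and 3), and a count per gene does not show the edited codon. Of 12 colon epithelial markers, 6 were over 1 TPM in every library, among them *EPCAM*, *KRT18* and *CDX2*, whereas *CDX1* had no read, and the leukocyte genes *PTPRC* and *CD3E* had none. The summed level of the epithelial markers ranged from 3779 to 4838 TPM in *ZK3*-WT and from 3475 to 5624 TPM in *ZK3*-KO cells, and that of 6 leukocyte markers stayed between 0.205 and 0.699 TPM. Of 4 endothelial markers none was over 1 TPM in any library. The sum of 6 fibroblast markers was 17.5 to 21.7 TPM in *ZK3*-WT and 12.1 to 29.3 TPM in *ZK3*-KO cells, and that of 4 muscle or heart markers was 1.73 to 4.37 against 3.14 to 23.9 TPM, with *COL1A1* and *TNNT2* the genes over 1 TPM, and the part of these in the results was not tested. Values below are TMM-normalized CPM, which scales reads to the library total multiplied by its TMM factor, unless TPM, which also divides by transcript length, is named. Single values follow the order of replicates 1, 2 and 3. In such bulk RNA, a change in the level per cell and a change in the mix of cells cannot be told apart.

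Among the 108 nuclear genes, 102 had enough reads to be tested, and most of them were slightly higher in *ZK3*-KO cells. Values above 0 on the log2 scale were found for 89 of 102 genes (87.3%), against 51.7% of all 18366 tested genes, with a median of 0.27 against 0.02. The shift was small for single genes, since the median standard error of a member was 0.17 on the log2 scale. In edgeR's quasi-likelihood test, 2 of 102 members passed a false discovery rate (FDR) of 0.05, both upregulated, where 2.05% of all tested genes passed in either direction and 0.817% passed as upregulated. The share of members called in either direction was therefore near the background. Without adjustment, 20 members were higher and 2 lower at a p-value under 0.05, against a background of 8.89% higher and 9.46% lower.

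**Figure D1:**
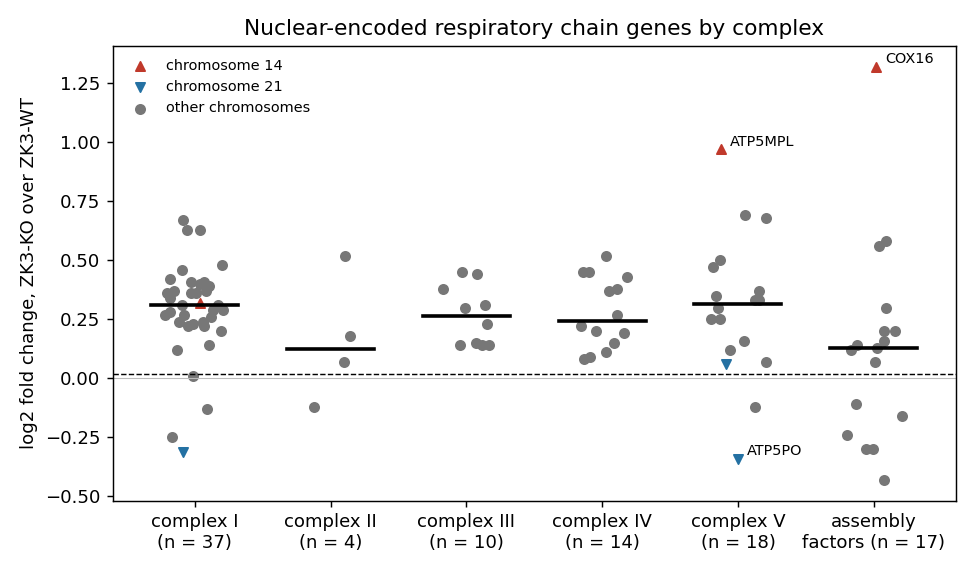
Log2 fold change of *ZK3*-KO over *ZK3*-WT cells (vertical axis, from TMM-normalized counts) for each tested nuclear gene of complexes I to V and each assembly factor. The readthrough genes, *ATP5MF-PTCD1* (-1.34) and *NDUFC2-KCTD14* (0.40), are not drawn. Bars mark the median of each group, the dashed line the median of all tested genes (0.02), and triangles the genes on chromosomes 14 and 21. Points lie mostly between 0 and 0.5 in complexes I, III, IV and V, with *COX16* (1.32) and *ATP5MPL* (0.97) above the rest.

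The upregulated genes *COX16* and *ATP5MPL* both lie on chromosome 14. *COX16* (NCBI Gene 51241, GRCh37 chr14:70791798-70883701, reverse strand) encodes an assembly factor of complex IV that takes part in maturation of its second subunit. Its level was 18.2, 17.9 and 17.0 CPM in *ZK3*-WT against 44, 44.7 and 44.2 CPM in *ZK3*-KO cells. Every *ZK3*-KO library was above every *ZK3*-WT library, and within each genotype the 3 values lay close together. The means were 17.7 ± 0.611 and 44.3 ± 0.35 CPM (SD, n = 3), a 2.5-fold difference, or 1.32 on the log2 scale (standard error 0.13, FDR 0.00559 in edgeR's quasi-likelihood test). It passed in 14 of 16 alternative fits, with log2 fold changes from 1.16 to 1.34. It missed the threshold without *ZK3*-WT replicate 2 or 3 (FDR 0.0605 and 0.0599 in edgeR's test). The annotated gene overlaps a readthrough gene, SYNJ2BP-COX16, to which only 1 to 28 reads per library were assigned, against 1144 to 3099 for *COX16*.

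*ATP5MPL* (current symbol *ATP5MJ*, NCBI Gene 9556, GRCh37 chr14:104378625-104394606, reverse strand) encodes a small proteolipid in the membrane part of ATP synthase. Its level was 41.3, 33.2 and 35.8 CPM in *ZK3*-WT against 63.1, 66.1 and 87.6 CPM in *ZK3*-KO cells. The groups did not overlap, and *ZK3*-KO replicate 3 was the highest library. The log2 fold change was 0.97 (standard error 0.18, FDR 0.0439 in edgeR's test, means 36.8 ± 4.15 and 72.3 ± 13.4 CPM, SD, n = 3). This call was less stable, since it passed in 9 of 16 alternative fits with FDR values up to 0.242. It was lost on leaving out any library other than *ZK3*-KO replicate 3.

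The sequence before a RefSeq start of both genes is shown with those of *SDHD* and *UQCRFS1*, a complex II and a complex III gene, because motifs of factors known for respiratory chain promoters could be looked up in them. Each stretch is the 120 bases before a RefSeq start, read 5′ to 3′ on the strand of the gene. They are taken from RefSeq promoter windows of GRCh38.p14 and were found once each in GRCh37, at chr14:70826401-70826520 (reverse strand) for *COX16*, chr14:104387867-104387986 (reverse) for *ATP5MPL*, chr11:111957477-111957596 (forward) for *SDHD* and chr19:29704059-29704178 (reverse) for *UQCRFS1*. The *COX16* and *ATP5MPL* stretches lie inside the spans given above, which are those of the GENCODE genes and extend further upstream than the RefSeq starts used here. Capitals mark matches on either strand to GCGCA, any base and GCGC in a row (NRF1), CCGGAAG (the ETS core that GABP binds), AAGATGGCG (YY1) or GGGCGG (the SP1 GC box).
COX16: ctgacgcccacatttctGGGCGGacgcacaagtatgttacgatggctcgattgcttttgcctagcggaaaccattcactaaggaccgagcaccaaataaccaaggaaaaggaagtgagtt
ATP5MPL: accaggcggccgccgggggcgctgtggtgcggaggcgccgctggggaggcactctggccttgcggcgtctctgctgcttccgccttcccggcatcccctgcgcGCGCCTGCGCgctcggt
SDHD: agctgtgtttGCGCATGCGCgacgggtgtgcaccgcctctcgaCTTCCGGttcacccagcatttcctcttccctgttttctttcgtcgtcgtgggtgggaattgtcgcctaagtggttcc
UQCRFS1: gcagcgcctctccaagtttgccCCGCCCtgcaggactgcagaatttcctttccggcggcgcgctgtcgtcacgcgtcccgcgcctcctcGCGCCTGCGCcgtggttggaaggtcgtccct

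The *COX16* stretch held a GC box and no other of these motifs, that of *ATP5MPL* an NRF1 match, that of *SDHD* an NRF1 and an ETS match, and that of *UQCRFS1* an NRF1 match and a GC box. Over whole windows, 250 bases before to 50 after the start, 88 members had 111 windows. NRF1 matches were in 18.9% of member windows against 5.78% of all 35116 windows, ETS matches in 27.0% against 10.3%, YY1 matches in 11.7% against 1.75% and GC boxes in 60.4% against 45.0%. No member window had an ETS match that overlapped a YY1 match. A match is a description of the letters and not a bound site.

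Chromosome 14 as a whole was higher in *ZK3*-KO cells, and chromosome 21 was lower. Of 523 tested genes on chromosome 14, 416 had a log2 fold change above 0, with a median of 0.51. In edgeR's test 54 passed as upregulated, where 0.817% of all tested genes did. Of 147 on chromosome 21, 116 were below 0, with a median of -0.39, and 6 passed as downregulated, where 1.23% of all tested genes did. The members followed these shifts to different degrees, and the part of the shifts in the members' values was not tested. Gene dosage and regulation cannot be told apart in RNA counts. Besides *COX16* and *ATP5MPL*, chromosome 14 carries *NDUFB1*, a small membrane subunit of complex I, with 16.9, 11.3 and 12.9 CPM in *ZK3*-WT and 16.5, 15.9 and 18.9 CPM in *ZK3*-KO cells. Its groups overlapped (log2 fold change 0.32, FDR 0.434 in edgeR's test). The remaining chromosome 14 member, *COX8C*, a testis isoform, was close to 0 CPM in every library and was not tested.

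On chromosome 21, *ATP5PO* encodes the oligomycin sensitivity-conferring subunit, which ties the stalk of ATP synthase to its head. Its level was 151, 130 and 137 CPM in *ZK3*-WT against 113, 107 and 109 CPM in *ZK3*-KO cells. It was the only complex V subunit whose *ZK3*-KO libraries all lay below the *ZK3*-WT libraries, and its change of -0.34 on the log2 scale (standard error 0.13) did not pass (FDR 0.237 in edgeR's test). *NDUFV3*, a small subunit at the NADH-oxidizing end of complex I, had 46.6, 53.7 and 58.5 against 39.0, 39.4 and 49.6 CPM, and *ZK3*-KO replicate 3 lay among the *ZK3*-WT libraries (log2 fold change -0.31, FDR 0.363 in edgeR's test). *ATP5PF*, a peripheral stalk subunit, had a log2 fold change of 0.06. Outside these chromosomes, none of 96 tested members passed in edgeR's test, and DESeq2 called *ATP5F1E* and *NDUFC2*. The median of the 96 members was 0.27, as for all members. At an unadjusted p-value under 0.05 in edgeR's test, 18 were higher and 1 lower, against 8.89% and 9.46% of all tested genes.

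Complex I was slightly higher over nearly all its subunits. Of 37 subunits, 34 were above 0, the median log2 fold change was 0.31 and none passed in edgeR's test. At an unadjusted p-value under 0.05 in that test, 8 were higher, against 8.89% of all tested genes. The 3 *ZK3*-KO libraries lay above the 3 *ZK3*-WT libraries for 17 of the 37 subunits and below them for none, where 12.7% of all tested genes did not overlap with *ZK3*-KO cells higher and 13.8% with *ZK3*-KO cells lower. This count depended on the scale, with 6 subunits above and 1 below on library totals and 5 above and 1 below on deposited TPM, where 8.79% and 6.78% of all tested genes lay above. The 7 core subunits, which carry the flavin and the iron-sulfur clusters or help to hold them, had a median of 0.22, and the 30 supernumerary subunits had a median of 0.33.

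*NDUFC2*, a supernumerary membrane subunit, had 45.8, 34.2 and 33.0 CPM in *ZK3*-WT against 57.5, 58.1 and 58.9 CPM in *ZK3*-KO cells. The groups did not overlap (log2 fold change 0.63, standard error 0.17, FDR 0.113 in edgeR's test and 0.0178 in DESeq2). The largest fold change of complex I belonged to *NDUFB8*, a membrane subunit often used as a marker of complex I assembly, with 92.1, 53.8 and 55.6 against 124, 120 and 76.7 CPM. Here *ZK3*-KO replicate 3 was lower than *ZK3*-WT replicate 1, so that the groups overlapped (log2 fold change 0.67, standard error 0.28, FDR 0.256 in edgeR's test). The core subunits *NDUFV1* and *NDUFS1*, which bind cofactors of NADH oxidation, differed little: *NDUFV1* at 124, 90.3 and 112 against 124, 114 and 116 CPM, and *NDUFS1* at 111, 117 and 109 against 124, 132 and 83.2 CPM. In *NDUFS1*, *ZK3*-KO replicate 3 was the lowest of the 6 libraries and the other *ZK3*-KO libraries were the highest. *NDUFB11* (log2 fold change 0.48, FDR 0.282 in edgeR's test) and *NDUFB2* (0.46, FDR 0.25) are further membrane subunits without overlap between the groups, the former highest in *ZK3*-KO replicate 3 at 75.1 CPM.

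**Figure D2:**
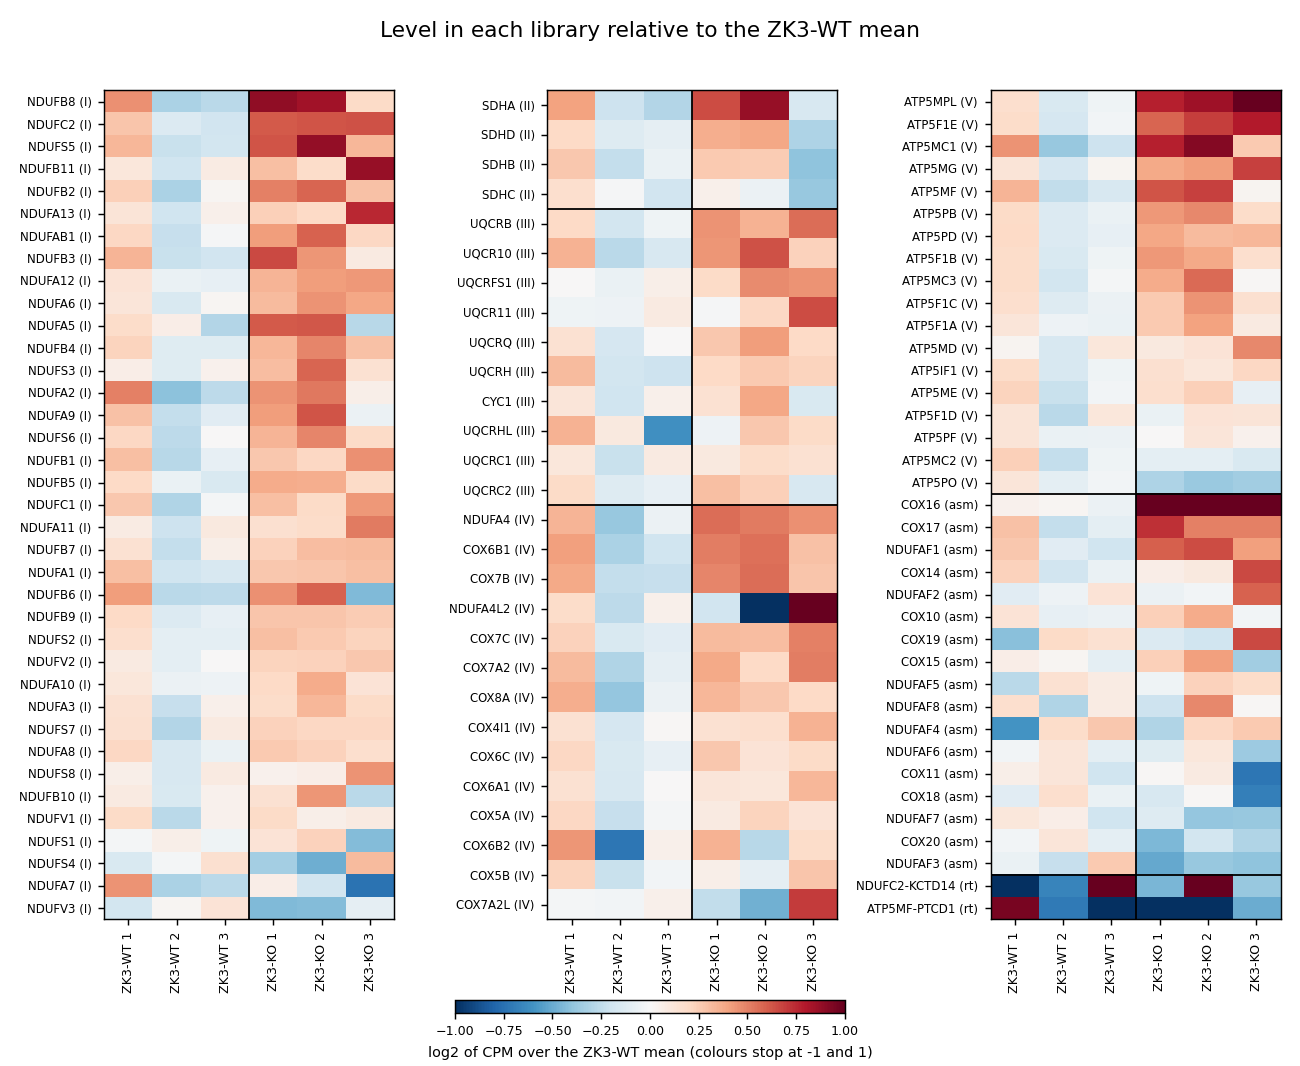
Each row is a tested nuclear respiratory chain gene, with its complex in brackets (asm, assembly factor; rt, readthrough gene), and each column a library; colour is the log2 ratio of TMM-normalized CPM to the *ZK3*-WT mean, and colours stop at -1 and 1. *ZK3*-WT replicate 1 is mostly red and replicate 2 mostly blue among the *ZK3*-WT libraries, and *ZK3*-KO replicate 3 departs from the other *ZK3*-KO libraries in complex II.

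Complex II, the succinate dehydrogenase that also serves the TCA cycle, is encoded by nuclear DNA alone. *SDHA*, the flavoprotein that oxidizes succinate, had 129, 84.6 and 80.4 CPM in *ZK3*-WT and 154, 179 and 87.7 CPM in *ZK3*-KO cells. *SDHB*, the iron-sulfur subunit, had 87.6, 61.3 and 69.0 against 87.0, 86.2 and 55.1 CPM. The membrane anchor *SDHD* had 77.2, 61.4 and 63.3 against 86.2, 88.4 and 54.3 CPM. In *ZK3*-KO replicate 3, *SDHB*, *SDHC* and *SDHD* were below every *ZK3*-WT library, and *SDHA* was within their range. Such a position of replicate 3 was found for 37.9% of all tested genes but for only 15.7% of the members. The log2 fold changes of *SDHA*, *SDHB*, *SDHC* and *SDHD* were 0.52, 0.07, -0.12 and 0.18, with standard errors of 0.3, 0.23, 0.17 and 0.22, and none passed (edgeR FDR 0.409 to 0.907) or had an unadjusted p-value under 0.05. Without *ZK3*-KO replicate 3 they were 0.77, 0.26, 0.00 and 0.38, with a median of 0.32 in place of 0.12, and *SDHA* passed (FDR 0.0347 in edgeR's test).

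*SDHC*, the other membrane anchor, differed between the count and the TPM. Its CPM values overlapped, at 133, 117 and 104 in *ZK3*-WT and 122, 113 and 90.8 in *ZK3*-KO cells. Its deposited TPM did not overlap, at 37.1, 29.1 and 30.2 in *ZK3*-WT and 62.9, 63.1 and 48.6 in *ZK3*-KO cells. On log2(TPM + 1), limma gave a log2 fold change of 0.83 (FDR 0.0589), against -0.12 for the counts. For 13 of 102 members, the signs differed between counts and mean TPM, or the log2 TPM ratio rounded to 0.0 (*UQCRHL* and *COX19*). *SDHC* was the only one of these 13 whose TPM groups did not overlap. TPM divides the reads by the length of the transcripts they were assigned to, and whether the mix of *SDHC* transcripts differed was not tested.

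All 10 tested subunits of complex III were above 0, with a median log2 fold change of 0.26. None passed the FDR in edgeR's test or in DESeq2. At an unadjusted p-value under 0.05 in edgeR's test, 2 were higher, against 8.89% of all tested genes. *UQCRFS1*, the Rieske iron-sulfur protein that passes electrons towards cytochrome c1, had 70.2, 66.7 and 73.1 CPM in *ZK3*-WT and 80.0, 97 and 95.4 CPM in *ZK3*-KO cells. The groups did not overlap (log2 fold change 0.38, standard error 0.14, FDR 0.22 in edgeR's test). *UQCRB*, which binds near the quinone site, was also separated, at 152, 116 and 128 against 180, 168 and 194 CPM (0.45, standard error 0.16, FDR 0.194). *CYC1*, cytochrome c1, was not, at 182, 145 and 173 against 185, 218 and 151 CPM. *UQCRHL*, an intronless copy of *UQCRH*, was counted at 0.4 to 0.779 CPM, and reads of a near-identical copy may be split between such a pair.

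In complex IV, 14 of 19 genes were tested, all 14 were above 0 with a median of 0.25, and none passed the FDR in edgeR's test or in DESeq2. At an unadjusted p-value under 0.05 in edgeR's test, 2 were higher, against 8.89% of all tested genes. *NDUFA4* had the largest log2 fold change among them, with 55.7, 33.8 and 42.2 CPM in *ZK3*-WT and 64.9, 62.8 and 60.5 CPM in *ZK3*-KO cells. Its groups did not overlap (log2 fold change 0.52, standard error 0.2, FDR 0.227 in edgeR's test). *COX4I1*, the common form of the largest nuclear subunit, had 276, 222 and 251 against 277, 280 and 318 CPM, and *ZK3*-KO replicate 1 exceeded *ZK3*-WT replicate 1 by little (0.22, FDR 0.486 in edgeR's test). *COX5A*, a matrix-side subunit, overlapped at 80.3, 58.8 and 68.5 against 73.8, 80.4 and 76.1 CPM. *COX7A2L*, which takes part in joining complexes III and IV, had the smallest log2 fold change of the complex (0.08) and spread *ZK3*-KO values, with 61.6 and 52.6 CPM in replicates 1 and 2 and 120 CPM in replicate 3, against 71.7 to 76.2 CPM in *ZK3*-WT cells.

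The isoforms of complex IV known from muscle, testis or lung had few reads or none. *COX4I2*, *COX6A2*, *COX7A1* and *COX7B2* had 0 reads in all 6 libraries, where a count of 0 allows up to 3 reads per library by counting error alone, and *COX8C* had at most 0.129 CPM. *COX6B2* ranged from 0.556 to 1.24 CPM. *NDUFA4L2*, a relative of *NDUFA4* known as a hypoxia-induced gene, ranged from 1.2 to 1.62 CPM in *ZK3*-WT cells and was 1.26, 0.404 and 4.16 CPM in *ZK3*-KO cells. Its *ZK3*-KO libraries thus enclosed the *ZK3*-WT range.

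In complex V, 18 of 19 genes were tested, of which 16 were above 0, with a median of 0.31, and *ATP5MPL* alone passed. By TPM, *ATP5F1B* was the most abundant nuclear member. *ATP5F1B*, the catalytic beta subunit, had 954, 760 and 819 CPM in *ZK3*-WT and 1139, 1099 and 947 CPM in *ZK3*-KO cells, and *ATP5F1A*, the alpha subunit, had 573, 508 and 503 against 632, 695 and 561 CPM. In both, *ZK3*-KO replicate 3 lay within the range of the *ZK3*-WT libraries, and the log2 fold changes were 0.33 and 0.25 (FDR 0.35 and 0.438 in edgeR's test).

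*ATP5F1E*, the epsilon subunit of the rotating central stalk, came closest to the threshold after the chromosome 14 genes. It had 75.5, 59.4 and 65.5 CPM in *ZK3*-WT and 99.7, 108 and 115 CPM in *ZK3*-KO cells, with no overlap. This was a change of 0.69 on the log2 scale (standard error 0.15, FDR 0.0698 in edgeR's test and 0.00155 in DESeq2). *ATP5MG*, a membrane subunit, was separated as well, at 78.3, 63.5 and 72.8 against 92.8, 95.4 and 115 CPM (0.50, standard error 0.16, FDR 0.16 in edgeR's test). By part of the enzyme, the median was 0.3 for 5 genes of the head and central stalk, 0.33 for 3 genes of the c-ring, 0.2 for 4 of the peripheral stalk and 0.47 for 5 supernumerary membrane subunits.

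**Figure D3:**
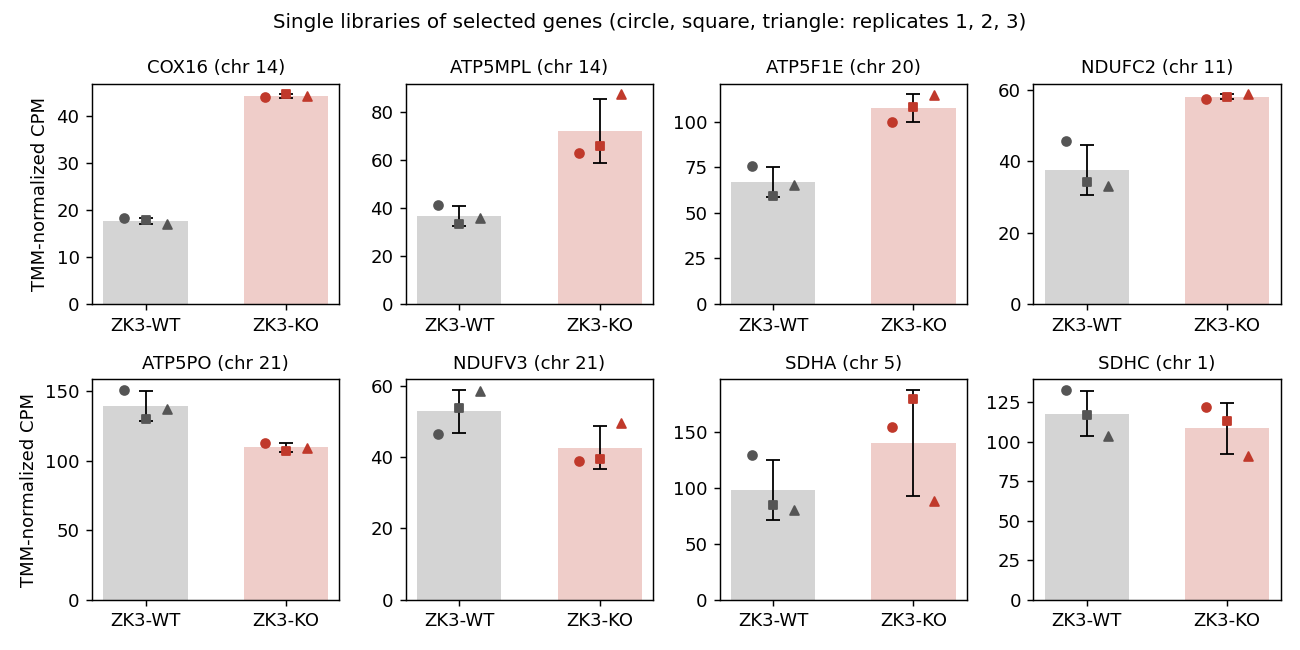
TMM-normalized CPM (vertical axis, from 0) of 8 genes in *ZK3*-WT and *ZK3*-KO cells; bars are means, error bars SD (n = 3), and circles, squares and triangles replicates 1, 2 and 3. The groups are apart for *COX16*, *ATP5MPL*, *ATP5F1E*, *NDUFC2* and *ATP5PO* and overlap for *NDUFV3*, *SDHA* and *SDHC*.

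The assembly factors had a lower median than the subunits, 0.13 against 0.29, and this difference was not tested. Of 17 genes, 11 were above 0, and the median fell to -0.01 on log2(TPM + 1). *COX17*, the copper chaperone of complex IV, had 17.2, 12 and 13.2 CPM in *ZK3*-WT and 23.4, 20.1 and 20 CPM in *ZK3*-KO cells (log2 fold change 0.58, standard error 0.19, FDR 0.17 in edgeR's test). *NDUFAF1*, which works on an intermediate of the complex I membrane arm, had 12.1, 9.33 and 8.79 against 15.3, 15.8 and 13.4 CPM (0.56, standard error 0.19, FDR 0.186). *NDUFAF3*, another complex I factor, went the other way, with 25.3, 22.7 and 31.8 against 18.7, 20.4 and 20.2 CPM (-0.43, standard error 0.17, FDR 0.242). The groups of these 3 genes did not overlap, and none passed. *COX20*, named after its values were seen, was the other assembly factor with all *ZK3*-KO libraries lower (-0.30, FDR 0.316 in edgeR's test).

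Counted over all members, 30 of 102 (29.4%) had *ZK3*-KO libraries all above the *ZK3*-WT libraries, beside a background of 12.7%, and 3 had them all below, beside 13.8%, so that 32.4% of members did not overlap in either direction, beside 26.6% of all tested genes. The *ZK3*-WT libraries also differed from each other in one direction: replicate 1 was the highest *ZK3*-WT library for 83 of 102 members (81.4%, against 39.3% of all tested genes), and replicate 2 was the lowest for 76 (74.5%, against 32.7%). Set against the average of the *ZK3*-WT libraries, the members had medians of 0.18, -0.17 and -0.05 in *ZK3*-WT and of 0.26, 0.28 and 0.20 in *ZK3*-KO cells. The distance from *ZK3*-WT replicate 1 to the *ZK3*-KO libraries was thus smaller than the distance between *ZK3*-WT replicates 1 and 2.

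Without *ZK3*-KO replicate 3, 85 of 102 members were above 0, against 48.6% of all tested genes, with a median of 0.28. Then 11 members passed in edgeR's test, all upregulated, where 15.1% of all tested genes passed in either direction and 7.41% as upregulated. They were *COX16*, *ATP5MPL*, *ATP5F1E*, *NDUFC2*, *NDUFB8*, *NDUFAF1* and *SDHA*, and, named after their values were seen, *NDUFA5*, *NDUFS5*, *ATP5MC1* and *ATP5MF*. DESeq2 called 4 members with all libraries, against 8.2% of all tested genes, or 3.87% as upregulated.

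How far *ZK3*-KO replicate 3 followed the other *ZK3*-KO libraries depended on the scale. The median of the members in this library was 0.20 on TMM-normalized CPM, 0.02 on CPM scaled by library totals and -0.14 on deposited TPM, while the median of all tested genes moved from -0.01 to -0.19 and -0.35. Relative to all tested genes, the members in this library were 0.21 higher on each of the 3 scales. TMM-normalized CPM and CPM on library totals differ by a single factor per library, so that their offsets had to be nearly equal. The deposited TPM comes from the same libraries, and the scales are not separate evidence. The number of members above 0 was 89, 83 and 77 of 102 on the 3 scales, the last by limma on log2(TPM + 1). The share whose *ZK3*-KO libraries all lay above the *ZK3*-WT libraries was 29.4%, 13.7% and 12.7%, beside 12.7%, 8.79% and 6.78% of all tested genes. In the same library, complex II lay below all tested genes by 0.34, 0.33 and 0.27 on the log2 scale, and complex IV lay 0.32 above them on each.

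**Figure D4:**
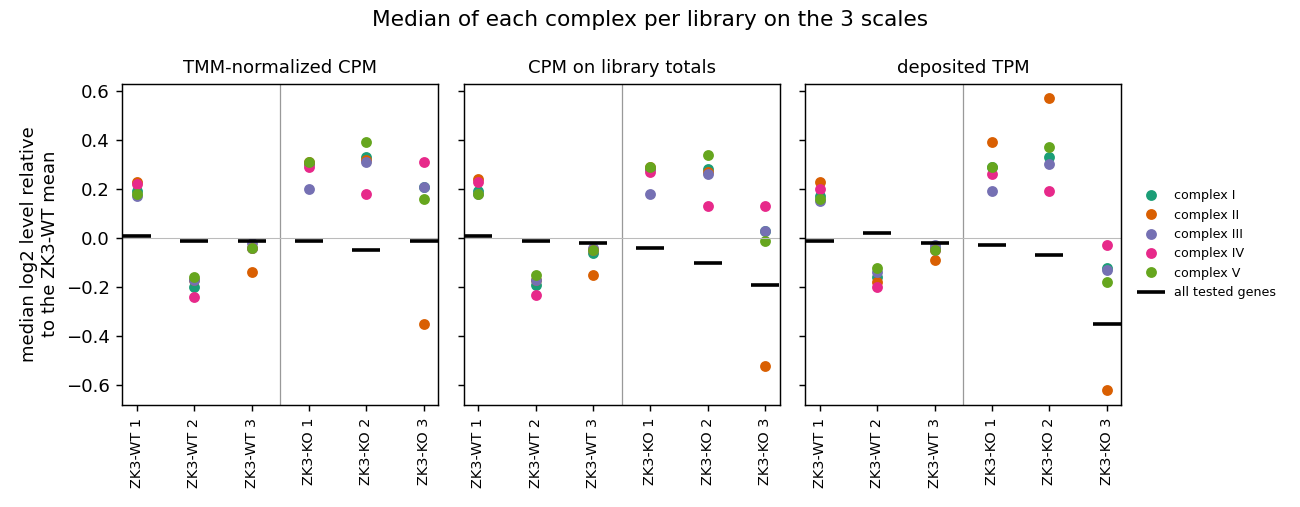
Median log2 level of the subunits of each complex relative to the *ZK3*-WT mean (vertical axis) in each library, on TMM-normalized CPM, CPM on library totals and deposited TPM; dashes mark the median of all tested genes. *ZK3*-KO replicates 1 and 2 are above 0 for complexes I to V on each scale. *ZK3*-KO replicate 3 is lower on deposited TPM than on TMM-normalized CPM for each complex, at -0.12 against 0.21 for complex I.

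In transcript levels per length, the mean share of each complex differed little between the genotypes. The summed TPM of the nuclear subunits of complexes I to V was 15483, 12240 and 13066 in *ZK3*-WT and 16362, 16753 and 12786 in *ZK3*-KO cells, and these groups overlapped, as they did for each complex. On summed CPM the groups did not overlap for complexes I, III and V, with ratios of 1.22, 1.19 and 1.22. Complex I made up 30.9, 30.9 and 31.2% of the summed TPM in *ZK3*-WT and 32.1, 32.5 and 32.3% in *ZK3*-KO cells, which was a small difference beyond the spread (31 ± 0.177% against 32.3 ± 0.181%, SD, n = 3). The share of complex III was 10.3 ± 0.078% against 9.84 ± 0.342% (SD, n = 3), also without overlap. For a single comparison of 3 against 3 libraries, a permutation test cannot reach a p-value under 0.05 and was not made. Complex II made up 2.38 to 2.65% in *ZK3*-WT libraries, against 2.73, 2.78 and 1.89% in those of *ZK3*-KO cells, where replicate 3 was the lowest. By mean TPM over the libraries, the highest gene was *NDUFB9* in complex I (497), *SDHB* in complex II (150), *UQCRH* in complex III (450), *COX4I1* in complex IV (687) and *ATP5F1B* in complex V (1098), while assembly factors ranged from 4.67 TPM (*COX18*) to 79.4 TPM (*COX17*).

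The mitochondrial DNA encodes the other subunits of complexes I, III, IV and V, and as a sum these did not separate the genotypes. The 13 mitochondrially encoded subunit genes took 9.98, 10.3 and 9.48% of reads in *ZK3*-WT and 9.28, 8.79 and 11.1% in *ZK3*-KO cells, which overlap. Their median log2 fold change was 0.13, and none passed in edgeR's test or in DESeq2. In edgeR's test 1 of them was higher at an unadjusted p-value under 0.05, beside 8.89% of all tested genes. Without *ZK3*-KO replicate 3 the median was 0.07, and in edgeR's test *ND5* passed as higher (0.38, FDR 0.0439) and *COX1* as lower (-0.56, FDR 0.0159). *COX1*, a catalytic subunit of complex IV, had 20477, 22808 and 21812 against 16153, 13132 and 25495 CPM, and *COX3*, its neighbour in the enzyme, 14222, 14555 and 14241 against 13655, 12505 and 20897 CPM. In both, *ZK3*-KO replicates 1 and 2 were below and replicate 3 above all *ZK3*-WT libraries. *COX2*, which receives the electrons of cytochrome c, had 9530, 9551 and 9357 against 10023, 9801 and 12971 CPM, with no overlap (log2 fold change 0.21, FDR 0.599 in edgeR's test). The complex I genes ranged from -0.03 (*ND4L*) to 0.45 (*ND3*), with *ND5* at 0.38, *ND2* at 0.22, *ND6* at 0.18, *ND4* at 0.17 and *ND1* at 0.04. *CYTB* of complex III was at 0.07 and *ATP6* and *ATP8* of complex V at 0.04 and -0.02.

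Other mitochondrial genes were described from 6 lists of 115 genes in all, the mitochondrially encoded subunits among them. Of 18 genes of the TCA cycle, 16 were above 0, with a median of 0.21, and of 18 genes of abundant membrane, import and chaperone proteins, 16 were above 0, with a median of 0.29. All 10 genes of electron carriers and of enzymes that feed electrons to ubiquinone were above 0, with a median of 0.28. None of these genes passed in edgeR's test. At an unadjusted p-value under 0.05 in that test, 2, 4 and 1 of the lists were higher, beside 8.89% of all tested genes. DESeq2 called 1 of these genes, *DLST* on chromosome 14 (FDR 0.00939), a TCA cycle gene named after its values were seen. Without *ZK3*-KO replicate 3, edgeR's test called 6 genes of the TCA cycle, 5 of the membrane, import and chaperone list and 2 of the electron carriers as higher and 1 gene of the membrane, import and chaperone list as lower, beside 15.1% of all tested genes called, and the medians were 0.34, 0.33 and 0.34. Of 18 tested regulators of mitochondrial biogenesis, 7 were above 0 and 11 below, with a median of -0.08. None passed in edgeR's test, where 3 were higher at an unadjusted p-value under 0.05, beside the same 8.89%. *POLG*, the mitochondrial DNA polymerase, also named after its values were seen, passed in DESeq2 (FDR 0.0211). Without *ZK3*-KO replicate 3, 2 of these regulators passed as higher in edgeR's test, and their median was 0.00. Among 37 further assembly factors, 29 were above 0, with a median of 0.19, and *ECSIT* passed. *ECSIT*, on chromosome 19, encodes a protein of the complex I assembly machinery that is also known from innate immune signalling. It had 19.1, 14.5 and 15.6 CPM in *ZK3*-WT and 33.7, 34.9 and 35 CPM in *ZK3*-KO cells, without overlap. This was a change of 1.08 on the log2 scale (standard error 0.16, FDR 0.0235 in edgeR's test), and it passed in 11 of 16 alternative fits, with FDR values up to 0.152. Like *ATP5MPL*, it missed the threshold on leaving out any library other than *ZK3*-KO replicate 3.

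The remaining rows add little. *ATP5MGL*, an intronless relative of *ATP5MG*, had at most 0.0713 CPM. The readthrough genes were erratic among replicates: *ATP5MF-PTCD1* had 847, 298 and 224 reads in *ZK3*-WT and 43, 185 and 305 reads in *ZK3*-KO cells, and *NDUFC2-KCTD14* had 5, 55 and 200 against 58, 213 and 59 reads. Such rows share exons with the subunit genes, and how shared reads were assigned is not given in the sources used here. Pseudogenes with the same name stems filled 115 rows, 46 of them with reads. They held 0.107 to 0.159% of the reads of these rows and the nuclear members together, higher in each *ZK3*-WT library than in each *ZK3*-KO library.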

How the data were processed

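RNA of parental HCT116 and *ZK3*-KO cells, 3 libraries each, was sequenced by the authors, whose processing notes name Bowtie2 2.2.5 and hg19 (GRCh37). The authors deposited 1 table with a read count per gene, an FPKM and a TPM value for each library. The FPKM values deposited by the authors were not used. TPM, deposited by the authors after scaling by transcript length, served for levels and 1 alternative. The methods name an Ensembl annotation and an ANOVA on TPM, while the table lists NCBI Gene identifiers.

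Counts were tested in R 4.3.3 with edgeR 4.0.16 (filterByExpr, TMM, quasi-likelihood test on genotype, all genes, Benjamini-Hochberg FDR 0.05, two-sided). The p-values set the difference between genotypes against the spread between these cultures. The libraries are not labelled by clone, so that variation between clones was not measured. Factors were 1.03, 1.03 and 1.02 for *ZK3*-WT and 1.01, 0.995 and 0.91 for *ZK3*-KO cells. Within each genotype, no library was a copy of another (chi-square per degree of freedom 41.5 or more). The labels do not say whether equal replicate numbers pair the libraries. Same-numbered deviations correlated across genes at 0.294, 0.112 and 0.449, although *ZK3*-WT replicate 1 and *ZK3*-KO replicate 2 correlated at 0.209. Deviations from a mean of 3 libraries are not independent of each other, so that these values cannot settle a pairing. Alternatives were library totals, upper-quartile factors, DESeq2 1.42.0, other read filters (1 read in all, 10 in every library), limma 3.58.1 on log2(CPM + 1), the replicate block, a transcript length offset (loess span 0.3), each library left out and, added after seeing the data, limma on log2(TPM + 1). The scripts were tested on simulated counts. The members, lists and groups were chosen with earlier results of these data known. Genes named were the members past the FDR, the extremes of each complex, a set of standard subunits, isoforms, readthrough genes, members on chromosomes 14 and 21, the 10 largest changes without overlap, mitochondrial subunits and list genes past the FDR. Gene positions came from a GENCODE annotation of GRCh37, matched from NCBI Gene to Ensembl identifiers and by symbol where that gave no match.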

Additional observations from a re-analysis of the deposited data

How the results depend on the processing

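The median log2 fold change of the members was 0.27 and stayed above 0 in all fits, between 0.19 and 0.36 on leaving out single libraries, at 0.19 on library totals and lowest at 0.15 on log2(TPM + 1), where the median of all tested genes was -0.08 in place of 0.02. Over tested genes with a known transcript length, the log2 fold change had a rank correlation of -0.117 with that length. With the length offset the median of the members was 0.23, and 0.22 with the replicate block added. On log2(TPM + 1) the medians of complexes I to V were 0.21, 0.14, 0.15, 0.10 and 0.17, against 0.31, 0.12, 0.26, 0.25 and 0.31. The count of members past the FDR was 2. It was 1 with upper-quartile factors, 1 with every gene that had at least 1 read, 4 with DESeq2 and 0 to 11 on leaving out 1 library, where *ZK3*-KO replicate 3 gave the 11, and *ZK3*-WT replicates 2 and 3 each gave 0. With the replicate number as a block it was 2 and the median was 0.26. The block changed no call among the members and the genes of the further lists. Over all tested genes, 461 were called with the block in place of 376. With single libraries left out, the median ranged from 0.21 to 0.45 in complex I and from 0.14 to 0.44 in complex IV, the highest values both without *ZK3*-WT replicate 1, from 0.02 to 0.32 in complex II, from 0.21 to 0.36 in complex III and from 0.24 to 0.41 in complex V. For assembly factors it ranged from 0.00 to 0.21, and it was 0.04 on library totals and -0.01 on log2(TPM + 1), where the direction turned. *SDHC* turned from -0.12 to 0.83 on log2(TPM + 1) without passing. The causes were not tested. For the tested genes named by the criteria listed above, 760 values in the alternatives kept their side of the FDR. A further 9 passed where they had not, and 14 no longer passed. These 14 all belonged to *COX16*, *ATP5MPL* and *ECSIT*, the named genes that had passed. Genes named after their values were seen are not counted here. The depth was similar among libraries, and 3 libraries per genotype limit the precision.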
